A study of Mus musculus with 2 samples.

Results

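The genes described here are 10 genes of canonical Wnt signaling and of its amplification by R-spondins: Axin2, Nkd2, Lef1, Tcf7, Tcf7l2, Lgr4, Lgr5, Lgr6, Rspo2 and Rspo3. They were chosen by symbol, and each was found in both gene lists, which hold 31053 genes (E15.5) and 27998 genes (E17.5). The coronal suture, the fibrous joint between the frontal and parietal bones, was captured by droplet single-cell RNA sequencing at the 2 stages, and the deposited matrix of a stage is called its library. The cells of both libraries were C57/BL6 wildtype. For E15.5, 10 sutures were pooled, dissociated with collagenase II and dispase and cleared of dead cells with a kit. The E17.5 library came from 3 batches of sutures from 2 litters, dissociated with collagenase IV and sorted by FACS. No gene was deleted and no agent was given in either library. Each library pools embryos, so the values carry no spread between animals. Stage, enzyme, sorting, sequencing site and gene annotation all differ from one library to the other, so their parts cannot be told apart.

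In canonical Wnt signaling, a Wnt ligand binds a Frizzled receptor and Lrp5 or Lrp6, β-catenin is spared from degradation, and it enters the nucleus, where it binds factors of the TCF/LEF family. Among the genes then transcribed are inhibitors of the pathway, so that their transcripts are often used as a readout of the response. R-spondins are secreted proteins that bind Lgr4, Lgr5 or Lgr6 and withdraw the ubiquitin ligases Znrf3 and Rnf43 from the cell surface, which leaves more Wnt receptor in place. In the skull, canonical Wnt signaling is known for its part in the commitment of mesenchyme to osteoblasts and in bone formation.

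The authors' cluster of each cell was used throughout: 6 osteogenic clusters (OG1 to OG4 and the proliferating PO1 and PO2), 5 ectocranial clusters (EC1 to EC4 and the ligament-like LIG) and 4 meningeal clusters (MG1 to MG4). The clusters were made from the same cells, so a difference between a cluster and the rest is a description. A level is the number of unique molecular identifiers (UMIs) of a gene in the cells of a cluster, scaled to a total of 1000000 UMIs in those cells (CPM), with an exact Poisson interval at 95%. A fold in a cluster is the level there over the level in all other labelled cells of the library, with an exact interval of the ratio. These intervals cover counting error only. There are no replicates, so no test was run.

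At E15.5 there were 5335 labelled cells with 48607817 UMIs (median 8510 a cell), and at E17.5 there were 6830 with 92585034 (median 12302 a cell). The 2 libraries shared 94 cell barcodes, and the E17.5 barcode suffixes, numbered 1 to 3, shared from 8 to 20 with each other. The suffixes mark technical libraries joined in the matrix, which the labels do not tie to batches, and their values are given as 3 values. In most clusters the leading genes named for them by the study were highest or next to highest in both libraries, such as Tac1 and Chodl in LIG and Ifitm5 and Dmp1 in OG4. OG1 was an exception: Erg was 2nd and 1st, but Pthlh ranked 5th and 3rd and Six2 6th and 5th of the 15 clusters at E15.5 and E17.5. Among other exceptions, Pi16 was 3rd in EC3 at E15.5, with a fold of 0.782, and Inhba was 3rd in OG2 at E17.5, with a fold of 1.53.

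Markers of OG2 were at odds with each other at E15.5. Lef1 and Inhba, which the study names for OG2, were highest in that cluster, but Sp7 was low. At that stage the osteoblast factor Sp7 was at 4.14 CPM (2.41 to 6.63) in OG2, where it ranked 9th of 15 clusters. It was at 15.1 CPM (10.1 to 21.7) in OG1, 58.7 CPM (46.3 to 73.5) in OG3 and 204 CPM (184 to 226) in OG4. Of 488 OG2 cells, 14 had an Sp7 UMI. At E17.5, 383 of 522 OG2 cells had one, and the level was 172 CPM (163 to 181). Crabp1, a retinoic acid binding protein, was instead at 1742 CPM in OG2 at E15.5, its highest level of 15 clusters, and at 88.5 CPM at E17.5. PO1 was alike, with Sp7 at 1.96 CPM and Crabp1 at 1297 CPM at E15.5. A dermal-type list (Crabp1, Twist2, Col7a1 and Sfrp5) was chosen after the values were seen. The summed level of all 4 genes ran from 42.6 CPM in OG4 to 2545 CPM in OG2 at E15.5. At E17.5 it ran from 28.6 CPM in OG3 to 144 CPM in EC2. Crabp1 made up most of the OG2 sum at E15.5. At that stage EC1, EC2 and EC3 had sums of 523, 182 and 304 CPM, all below that of OG2. The study ties these ectocranial clusters to the hypodermis. The name of the list is therefore not evidence of a dermal identity. Sfrp5, a secreted Wnt inhibitor, was at 125 CPM in OG2 at E15.5 and at 0 at E17.5. Cells labelled OG2, PO1 and PO2 at E15.5 are therefore named by their labels below, and the E15.5 osteogenic folds of Axin2, Nkd2, Lef1, Tcf7l2, Lgr5 and Rspo3 are also given without them.

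Promoter sequences are shown for Axin2, Nkd2 and Lef1, whose levels were highest in the same 3 E15.5 clusters. They are RefSeq windows of build GRCm38.p6, from 250 bases before to 50 bases after a transcript start, in the direction of the transcript, and capitals mark the letters CTTTGA or TCAAAG, the core of the motif that TCF/LEF factors bind, read on both strands. Of the 10 genes, 7 were in the RefSeq table, with 12 windows, and Lgr5, Rspo2 and Rspo3 were not. The letters were found in 1 of the 12 windows, that of an internal start of Lef1, and in 5257 of all 32851 windows (16%). The longer form CTTTGAT or ATCAAAG, which contains the core letters, was in 3.73% of all windows and in none of the 12. A match is a description of the sequence and not a bound site.

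Axin2, chr11:108920099-108920398, + strand: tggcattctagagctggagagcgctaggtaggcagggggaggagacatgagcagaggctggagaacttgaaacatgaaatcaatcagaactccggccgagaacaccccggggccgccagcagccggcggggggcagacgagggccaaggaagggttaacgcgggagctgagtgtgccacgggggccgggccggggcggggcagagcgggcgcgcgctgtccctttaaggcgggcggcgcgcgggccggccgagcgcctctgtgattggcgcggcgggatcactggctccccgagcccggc

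Nkd2, chr13:73847582-73847881, − strand: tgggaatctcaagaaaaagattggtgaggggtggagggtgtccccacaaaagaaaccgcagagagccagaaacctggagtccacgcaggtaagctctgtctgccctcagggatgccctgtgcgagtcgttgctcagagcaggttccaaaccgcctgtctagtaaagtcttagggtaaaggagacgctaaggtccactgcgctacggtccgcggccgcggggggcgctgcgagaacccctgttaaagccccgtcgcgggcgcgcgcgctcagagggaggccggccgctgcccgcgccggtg

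Lef1, outermost start, chr3:131110047-131110346, + strand: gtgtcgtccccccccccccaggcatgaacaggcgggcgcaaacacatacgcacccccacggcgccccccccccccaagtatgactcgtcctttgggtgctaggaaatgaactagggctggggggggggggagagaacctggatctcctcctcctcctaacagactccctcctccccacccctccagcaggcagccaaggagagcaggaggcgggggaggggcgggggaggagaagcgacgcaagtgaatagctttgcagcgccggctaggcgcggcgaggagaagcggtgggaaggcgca

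Lef1, internal start, chr3:131156044-131156343, + strand: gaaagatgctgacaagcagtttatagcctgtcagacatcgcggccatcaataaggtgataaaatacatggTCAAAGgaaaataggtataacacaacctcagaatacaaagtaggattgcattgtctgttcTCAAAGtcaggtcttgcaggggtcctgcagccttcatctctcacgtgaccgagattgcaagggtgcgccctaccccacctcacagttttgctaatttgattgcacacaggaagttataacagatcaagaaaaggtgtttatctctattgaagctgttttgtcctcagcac

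G and C made up 70% of the Axin2 window, 63% of the Nkd2 window and 67.3% of that of the outermost Lef1 start, which hold no capitals, and 43.7% of the internal Lef1 window, which carries the core letters at 2 places. In GRCm38 coordinates Axin2 (ENSMUSG00000000142) and Tcf7 (ENSMUSG00000000782) are on chromosome 11, at 108920349 to 108950783 and 52252371 to 52283014, and Lgr5 (ENSMUSG00000020140) and Rspo3 (ENSMUSG00000019880) are on chromosome 10, at 115450311 to 115587780 and 29452416 to 29535867. Lef1 (ENSMUSG00000027985) is on chromosome 3, at 131110471 to 131224356, Nkd2 (ENSMUSG00000021567) is on chromosome 13, at 73818534 to 73847631, and Tcf7l2 (ENSMUSG00000024985) is on chromosome 19, at 55741820 to 55933654. Lgr4 (ENSMUSG00000050199) is on chromosome 2, at 109917647 to 110014257, Lgr6 (ENSMUSG00000042793) is on chromosome 1, at 134983301 to 135105276, and Rspo2 (ENSMUSG00000051920) is on chromosome 15, at 43020794 to 43170826. The UMIs were counted over exons of these genes near the 3′ end of transcripts, so they do not tell which start was used.

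**Figure D1:**
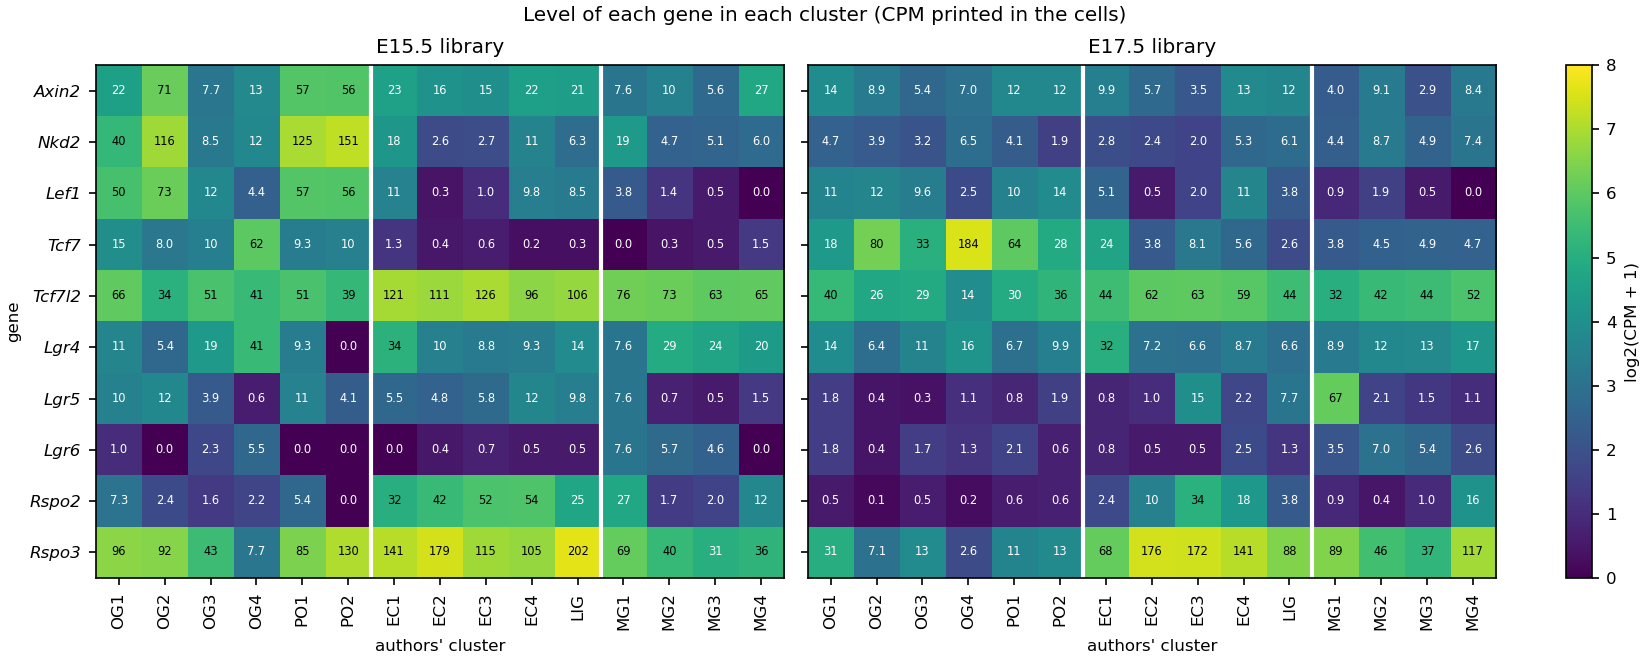
Level of each of the 10 genes in each of the 15 clusters at E15.5 and E17.5, colored by log2(CPM + 1) with the CPM printed in each field. Axin2, Nkd2 and Lef1 are brightest in OG2, PO1 and PO2 at E15.5, Tcf7 in OG4 in both libraries, and Lgr5 in MG1 at E17.5.

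Lef1 and Tcf7 were higher in osteogenic clusters, Tcf7l2, Rspo2 and Rspo3 in ectocranial clusters and Lgr6 in meningeal clusters in both libraries, whereas Axin2, Nkd2 and Lgr5 were highest in different clusters at E15.5 and E17.5. Of the 10 genes, 9 had at least 100 UMIs over the labelled cells of each library, and Lgr6, with 58 at E15.5, did not. A cluster stood at least 2-fold above the other labelled cells in both libraries for 5 of the 10 genes. Lgr6 is one of the 5, so among genes that passed the filter the count is 4 of 9. The same held for 2088 of the 11147 genes tested, or 18.7%. In all, 6 of 150 pairs of a gene and a cluster passed this limit, and 4 of 135 without Lgr6, beside 1.7% of the pairs of all genes tested. By region, 5 genes passed it: Lef1 and Tcf7 in the osteogenic clusters (2.73% of all genes tested), Rspo2 and Rspo3 in the ectocranial clusters (3.79%) and Lgr6 in the meningeal clusters (2.64%). For any region the share of all genes was 9.15%. Lgr6, below the filter, is not among the genes that these shares cover.

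Axin2 encodes a scaffold of the complex that degrades β-catenin and is a feedback target of the pathway. At E15.5 it was highest in OG2, at 70.7 CPM (62.8 to 79.3), PO1, at 57.3 CPM (47.4 to 68.7), and PO2, at 55.8 CPM (36.8 to 81.1), and the intervals of these 3 clusters overlapped. The next clusters were MG4 at 27.1 CPM (16.1 to 42.8), EC1 at 23.1 CPM, OG1 at 22.4 CPM, EC4 at 21.7 CPM and LIG at 21.1 CPM, and the lowest was MG3 at 5.59 CPM (2.79 to 10.0). Axin2 was thus detected in all 3 regions at E15.5, and no neighbors in the order of the 15 clusters had intervals that were apart. At E17.5 the highest level was 13.7 CPM (11.7 to 16.0), in OG1, with 7 clusters overlapping it, and the lowest was 2.94 CPM (1.08 to 6.4), in MG3. In OG2 the level was 8.95 CPM (6.99 to 11.3), with 14.6, 7.27 and 8.77 CPM in suffixes 1, 2 and 3. The level in OG2 was 7.9-fold lower (6.07 to 10.4) at E17.5 than at E15.5.

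The osteogenic clusters together had Axin2 at 43.8 CPM (40.0 to 47.7) at E15.5 against 16.7 CPM in the other labelled cells, a fold of 2.63 (2.33 to 2.96), and at 9.36 CPM (8.55 to 10.2) at E17.5 against 8.19 CPM, a fold of 1.14 (0.992 to 1.32). Without OG2, PO1 and PO2 the E15.5 fold was 0.907, and with osteogenic cells that had an Sp7 UMI alone it was 0.949. The level of Axin2 in E15.5 osteogenic clusters therefore rested on the cells labelled OG2, PO1 and PO2. Of OG2 cells, 39.3% (35 to 43.8) had an Axin2 UMI at E15.5 (median 7723 UMIs a cell) and 12.8% (10.1 to 16) had one at E17.5 (median 15134). After each cell was thinned to 3000 UMIs these shares were 21.5% and 2.68%. The background was taken from unlabelled myeloid cells-like clusters, where an Axin2 UMI was found in 4.51% of the 266 E15.5 cells and 1.45% of the 482 E17.5 cells, whose medians were 9660 and 9570 UMIs.

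Nkd2 encodes an inhibitor that binds Dishevelled. At E15.5 its levels were 151 CPM (118 to 190) in PO2, 125 CPM (110 to 142) in PO1 and 116 CPM (105 to 126) in OG2, with overlapping intervals. OG1 followed at 39.5 CPM (31.1 to 49.5), and the lowest level was 2.61 CPM (1.67 to 3.88), in EC2. At E17.5 no cluster stood out: the highest was MG2 at 8.68 CPM (6.25 to 11.7), with 6 clusters overlapping it, and the lowest was PO2 at 1.85 CPM (0.382 to 5.41). The proliferating and OG2 clusters thus held the highest levels at E15.5 and were among the lower ones at E17.5. In OG2 the E17.5 level was 3.91 CPM (2.66 to 5.55), with 6.03, 4.76 and 2.19 CPM in the 3 suffixes, and it was 29.6-fold lower (20.5 to 44) than at E15.5. In PO1 it was 30.4-fold lower (20.8 to 46). In LIG the E15.5 level, 6.27 CPM (4.06 to 9.25), overlapped that of E17.5, 6.08 CPM (4.59 to 7.9). Of OG2 cells, 50.6% had an Nkd2 UMI at E15.5 and 5.75% at E17.5, against 3.76% and 1.24% of the myeloid cells-like cells. After thinning the OG2 shares were 25.2% and 1.53%.

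Over regions, Nkd2 had an osteogenic fold of 13.7 (11.8 to 16) at E15.5 and 0.888 (0.731 to 1.08) at E17.5. The E15.5 osteogenic fold was 3.8 without OG2, PO1 and PO2, and 3.4 with osteogenic cells that had an Sp7 UMI alone. In the meningeal clusters the fold was 0.221 (0.151 to 0.312) at E15.5 and 1.46 (1.14 to 1.84) at E17.5, while the meningeal level itself was 5.63 CPM (3.88 to 7.91) and 6.3 CPM (5.07 to 7.74). The 2 meningeal levels overlapped, and the other labelled cells had 25.5 CPM at E15.5 and 4.33 CPM at E17.5.

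Lef1, the TCF/LEF factor that the study used to name OG2 together with Inhba, was highest in the same clusters as Axin2 at E15.5. It was at 73.4 CPM (65.3 to 82.1) in OG2, 56.8 CPM (46.9 to 68.1) in PO1, 55.8 CPM (36.8 to 81.1) in PO2 and 50.4 CPM (40.9 to 61.5) in OG1. OG3 had 12.4 CPM (7.07 to 20.1), OG4 had 4.42 CPM (1.91 to 8.71), and EC2 had 0.326 CPM (0.0672 to 0.952). Among ectocranial clusters EC1 at 10.7 CPM, EC4 at 9.77 CPM and LIG at 8.52 CPM had more Lef1 than EC2 and EC3, whose intervals lay below theirs. MG4 had no Lef1 UMI in either library, which allows up to 4.51 CPM at E15.5 and 1.58 CPM at E17.5. At E17.5 the levels were compressed, with PO2 at 13.6 CPM (8.51 to 20.6), OG2 at 11.6 CPM (9.35 to 14.2), EC4 at 11.4 CPM (8.45 to 14.9), OG1 at 11.1 CPM, PO1 at 10.5 CPM, OG3 at 9.55 CPM and OG4 at 2.48 CPM (1.62 to 3.63). The low level of Lef1 in OG4, the cluster of mature osteoblasts, was thus common to both libraries. In OG2 the E17.5 suffixes were at 22.4, 8.67 and 11 CPM, and the level was 6.32-fold lower (4.99 to 8.08) than at E15.5. Inhba, an activin subunit, was also highest in OG2 at E15.5, at 79 CPM, and was at 14.1 CPM at E17.5.

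The fold of Lef1 in PO2, a cluster that 3.04% of all genes tested passed, was above the limit in both libraries, at 4.04 (2.64 to 5.93) and 2.16 (1.34 to 3.3), whereas in OG2 it was 8.35 at E15.5 and 1.96 at E17.5. The PO2 value rests on 27 and 22 UMIs, and in the E17.5 suffixes, with 10, 29 and 37 PO2 cells, it was 1.12, 3.71 and 1.47. Without suffix 2 the E17.5 fold was 1.34, below the limit. Over the osteogenic clusters the fold was 14.1 (11.6 to 17.2) and 3 (2.45 to 3.69), and the E15.5 fold was 7 without OG2, PO1 and PO2, and 4.49 with osteogenic cells that had an Sp7 UMI alone. A Lef1 UMI was found in 40% (35.6 to 44.5) of OG2 cells at E15.5 and 14.9% (12 to 18.3) at E17.5, and in 1.5% and 1.04% of the myeloid cells-like cells. Markers of other cells moved with Lef1 in OG1. All 4 keratinocyte markers were highest in OG1 at E15.5, with a summed level of 403 CPM there and 35.6 CPM in the next cluster, and the muscle list was also highest there at 768 CPM. The 29 of 261 OG1 cells with at least 3 keratinocyte UMIs had Lef1 at 160 CPM (94.6 to 252), and the other 232 had it at 43.6 CPM (34.6 to 54.4), with Nkd2 at 41.4 CPM and Axin2 at 23.2 CPM.

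**Figure D2:**
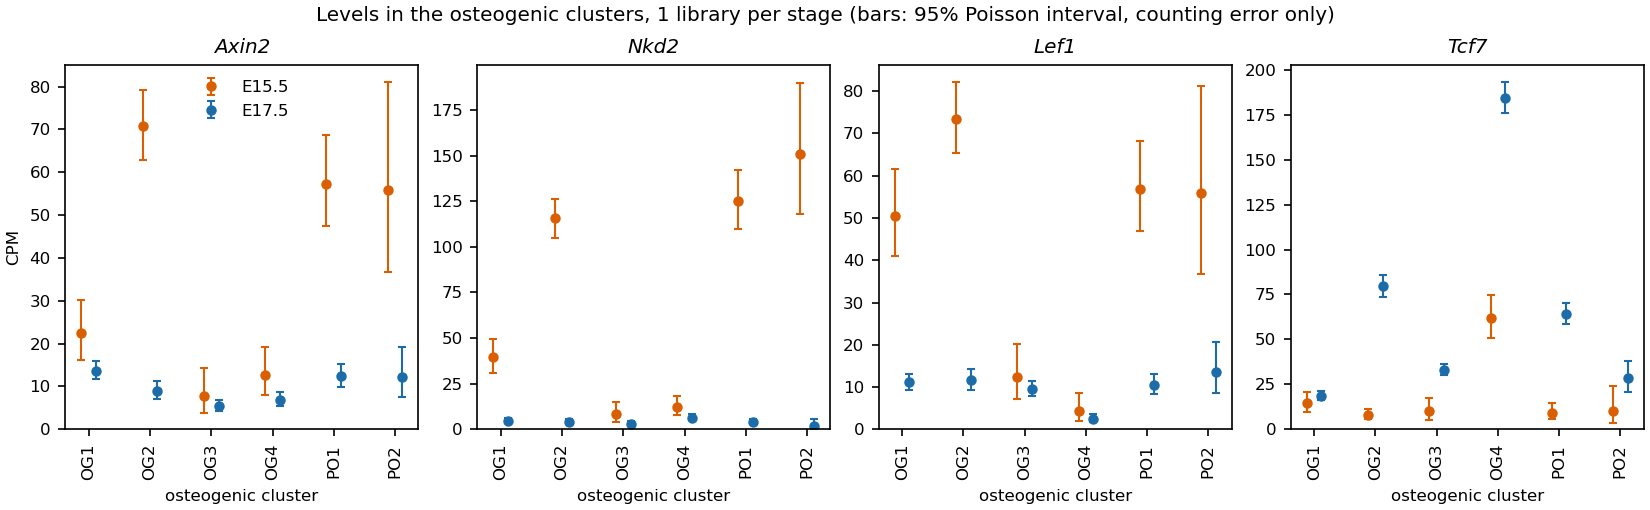
Levels (CPM, with exact Poisson intervals at 95%) of Axin2, Nkd2, Lef1 and Tcf7 in the 6 osteogenic clusters of each library. Axin2, Nkd2 and Lef1 are high in OG2, PO1 and PO2 at E15.5 and low in all 6 clusters at E17.5, and Tcf7 is highest in OG4 in both libraries.

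Tcf7, a TCF/LEF factor with long and short forms, differed from Lef1 in both place and stage. At E15.5 it was at 61.9 CPM (51.0 to 74.5) in OG4, 14.6 CPM (9.68 to 21.0) in OG1, 10.3 CPM (3.35 to 24.1) in PO2, 10.0 CPM in OG3, 9.3 CPM in PO1 and 8.04 CPM (5.54 to 11.3) in OG2. No ectocranial or meningeal cluster had more than 1.5 CPM, and no cluster overlapped OG4. At E17.5 it was at 184 CPM (176 to 193) in OG4, 79.6 CPM (73.5 to 86.0) in OG2, 64.1 CPM (58.4 to 70.2) in PO1, 33.1 CPM (30.1 to 36.4) in OG3, 28.4 CPM in PO2, 24.5 CPM (18.8 to 31.4) in EC1 and 18.5 CPM (16.1 to 21.1) in OG1. OG4 was again apart from all others, and the E17.5 suffixes were close to each other there, at 172, 192 and 181 CPM, as in OG2, at 88.7, 78.9 and 77 CPM. The fold in OG4 was 24.8 (18.9 to 32.4) at E15.5 and 7.52 (7.07 to 8.01) at E17.5, in a cluster that 2.75% of all genes tested passed. A Tcf7 UMI was found in 35.8% (29 to 43) of OG4 cells at E15.5 and 88.8% (85.8 to 91.4) at E17.5, and after thinning in 9.09% and 36.8%. In the myeloid cells-like cells the shares were 1.88% and 2.28%.

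OG1, which the study places at the start of the osteogenic series, stood 3.38-fold above the other labelled cells for Tcf7 at E15.5 and at 0.4 of their level at E17.5. Its level of 14.6 CPM at E15.5 and 18.5 CPM at E17.5 had overlapping intervals, while OG2 was 9.89-fold higher (6.97 to 14.5) and OG4 2.98-fold higher (2.46 to 3.63) at E17.5. EC1 was the ectocranial cluster with the most Tcf7 at E17.5, at 28.4, 29.6 and 18.7 CPM in the 3 suffixes, with no other ectocranial cluster above 8.12 CPM. At E15.5 EC1 had 4 Tcf7 UMIs, or 1.3 CPM (0.354 to 3.33). Osteoblast genes moved with Tcf7 in EC1: Sp7 was at 2.93 CPM at E15.5 and 110 CPM at E17.5, against 12 to 34.1 CPM in the other ectocranial clusters of E17.5, Dlx5 at 3.25 and 94.1 CPM, Runx2 at 9.75 and 81.9 CPM and Alpl at 12.4 and 197 CPM. Their part in the Tcf7 level of EC1 was not tested.

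Among osteogenic cells, Tcf7 was higher in cells with an Sp7 UMI in both libraries, and Lef1 and Nkd2 were higher in cells without one at E15.5. At E15.5, the 231 of 1287 osteogenic cells with an Sp7 UMI had Tcf7 at 42.7 CPM (35.1 to 51.6), and the 1056 without one had it at 11.2 CPM (9.11 to 13.6). At E17.5 the values were 86.9 CPM (84.1 to 89.8) in 2484 cells and 12.8 CPM (10.8 to 15.1) in 941 cells. The order was the opposite at E15.5 for Axin2, at 15.8 CPM (11.3 to 21.6) with and 51.5 CPM (46.9 to 56.4) without an Sp7 UMI. Lef1 was at 15.4 CPM (11 to 21.1) and 57.6 CPM (52.8 to 62.8), and Nkd2 at 19.4 CPM (14.3 to 25.6) and 94.5 CPM (88.3 to 101). At E17.5 Axin2 was at 8.42 and 12.9 CPM, Lef1 at 8.8 and 9.99 CPM, and Nkd2 at 4.29 and 4.76 CPM, so the gap between the cells with and without Sp7 was small there. Cells with an Sp7 UMI were deeper, with medians of 9492 against 7931 UMIs at E15.5 and 15787 against 10792 at E17.5. A split by Crabp1 gave the reverse pattern at E15.5: the 798 osteogenic cells with a Crabp1 UMI had Axin2 at 59.9 CPM, Lef1 at 65.4 CPM, Nkd2 at 112 CPM and Rspo3 at 96 CPM, and the 489 without one had them at 13.7, 17.2, 14.7 and 34.8 CPM.

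Most E15.5 osteogenic cells without an Sp7 UMI were labelled OG2, PO1 or PO2, so the splits were repeated in OG1, OG3 and OG4 alone. There, at E15.5, 210 cells with an Sp7 UMI and 381 without one had Axin2 at 14.8 CPM (10.3 to 20.7) and 15.4 CPM (11.1 to 20.8), so the gap in Axin2 was not seen without these clusters. Lef1 was still higher without Sp7, at 10.9 CPM (7.06 to 16.1) with and 35.1 CPM (28.4 to 42.9) without, as was Nkd2, at 14 CPM (9.55 to 19.7) and 28.2 CPM (22.2 to 35.2). Tcf7 was at 46.3 CPM (37.9 to 55.9) with and 17.2 CPM (12.6 to 22.9) without Sp7, and at E17.5 at 90.5 CPM (87 to 94.1) and 9.12 CPM (7.1 to 11.5). In the split by Crabp1, the 148 E15.5 cells with a UMI had Axin2 at 24.9 CPM (17.2 to 34.7), Lef1 at 45.3 CPM, Nkd2 at 42.4 CPM and Rspo3 at 93.6 CPM, and the 443 without one had 11.5, 16.1, 13.9 and 34.7 CPM, with intervals apart for each of the 4 genes. Both splits pool clusters that themselves differ in these genes. At E15.5 OG4, highest for Sp7, had Lef1 at 4.42 CPM, Nkd2 at 12.2 CPM and Tcf7 at 61.9 CPM. OG1 had 50.4, 39.5 and 14.6 CPM. The gaps between cells with and without a UMI therefore cannot be told apart from those between clusters.

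**Figure D3:**
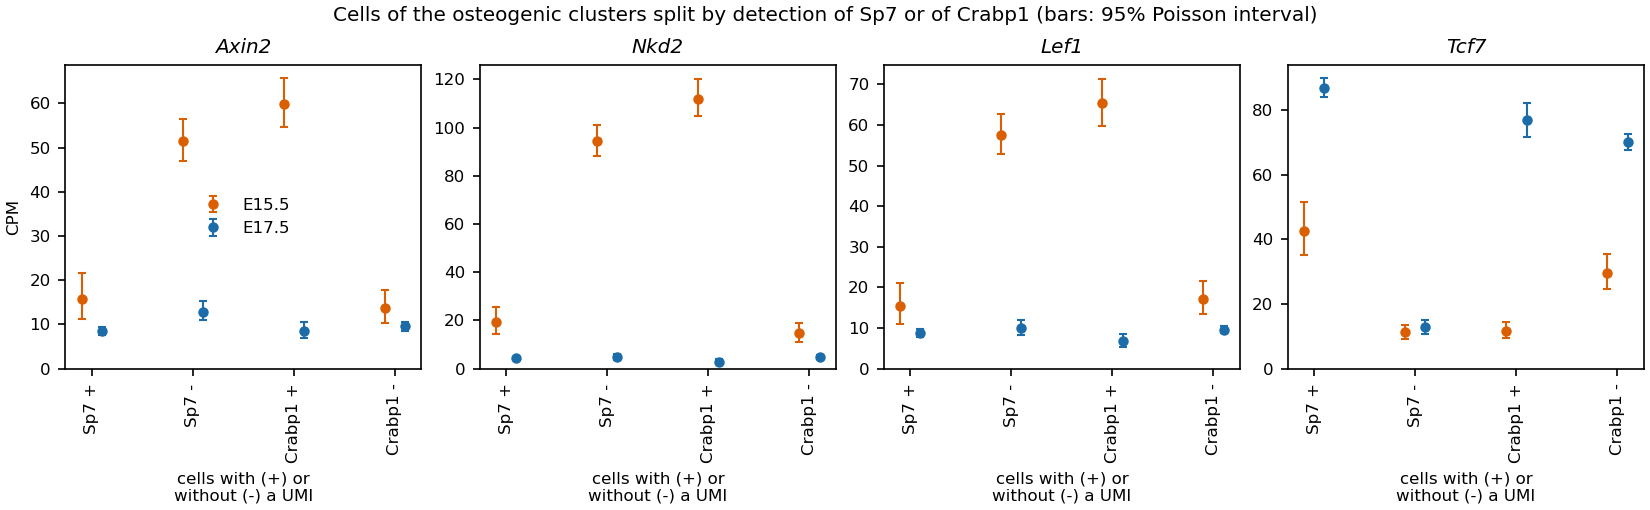
Levels (CPM, with exact Poisson intervals at 95%) of Axin2, Nkd2, Lef1 and Tcf7 in osteogenic cells with and without a UMI of Sp7 and of Crabp1, in each library. Over all 6 osteogenic clusters at E15.5, Axin2, Nkd2 and Lef1 are higher in cells without an Sp7 UMI and with a Crabp1 UMI, and Tcf7 is higher in cells with an Sp7 UMI in both libraries.

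Within OG2 at E15.5, cells with and without a Lef1 UMI did not differ beyond counting error in the detection of the feedback genes. After thinning, 30.5% (21.9 to 40.2) of 105 cells with a Lef1 UMI and 23.7% (19.6 to 28.4) of 379 cells without one had an Nkd2 UMI. For Axin2 the shares were 21% (13.6 to 30) and 21.6% (17.6 to 26.1). The intervals overlapped in both cases, and which difference could be seen at 3000 UMIs per cell was not tested.

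Tcf7l2, the TCF/LEF factor with the broadest presence here, was highest in ectocranial cells. At E15.5 the levels ran from 126 CPM (119 to 132) in EC3, 121 CPM (109 to 134) in EC1 and 111 CPM (104 to 118) in EC2 through 106 CPM in LIG and 96.2 CPM in EC4 to 33.6 CPM (28.3 to 39.7) in OG2. At E17.5 they ran from 63.0 CPM (52.4 to 75.1) in EC3, 61.9 CPM in EC2 and 59.0 CPM in EC4 to 14.1 CPM (11.9 to 16.6) in OG4. OG4, highest for Tcf7, was thus lowest for Tcf7l2 at E17.5 and among the 3 lowest at E15.5. The ectocranial fold was 2.15 (2.0 to 2.31) and 1.74 (1.63 to 1.86), and the osteogenic fold was 0.423 and 0.582. Without OG2, PO1 and PO2 the E15.5 folds were 1.85 and 0.496. Tcf7l2 UMIs were also found in 36.1% and 28.4% of the myeloid cells-like cells, at 46.8 and 32 CPM, so detection was not confined to labelled cells.

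**Figure D4:**
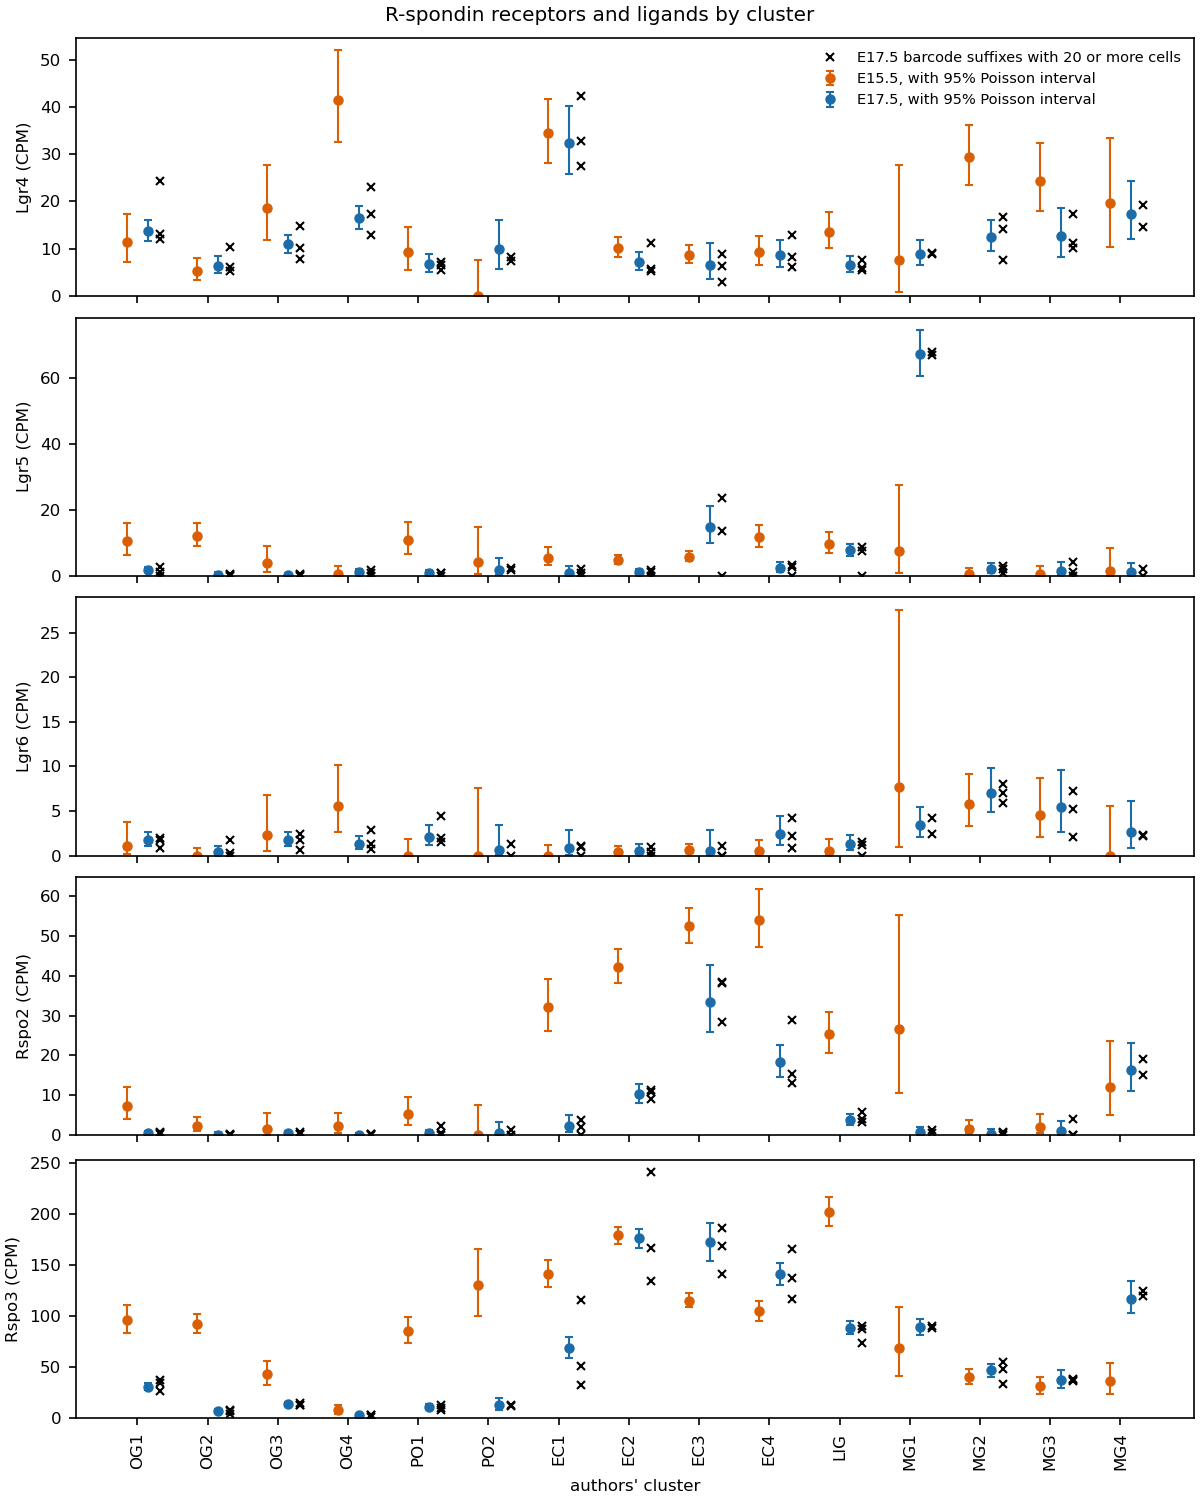
Levels (CPM, with exact Poisson intervals at 95%) of Lgr4, Lgr5, Lgr6, Rspo2 and Rspo3 in the 15 clusters of each library, with crosses for E17.5 barcode suffixes with at least 20 cells of a cluster. Lgr5 stands apart in MG1 at E17.5, and Rspo2 and Rspo3 are highest in ectocranial clusters.

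The 3 receptors for R-spondins each had a different place. Lgr4, the most widely expressed of them in the body, was at 41.4 CPM (32.6 to 52.0) in OG4, 34.5 CPM (28.2 to 41.7) in EC1, 29.3 CPM (23.5 to 36.2) in MG2 and 24.4 CPM (18.0 to 32.4) in MG3 at E15.5. Markers of other cells were also highest in OG4 at E15.5: the summed chondrocyte list was at 2125 CPM there, 1344 CPM in the next cluster and 233 CPM in the lowest, the mast cell list was at 375 CPM against 163 CPM in the next, and one chondrocytes-like cluster outside the labels held Lgr4 at 61 CPM. Their part in the OG4 level was not tested. Lgr4 was low in OG2, at 5.36 CPM (3.36 to 8.12), and no UMI was found in the 35 cells of PO2, which allows up to 6.2 CPM. At E17.5 EC1 was apart from all other clusters, at 32.4 CPM (25.8 to 40.2), with 27.4, 42.3 and 32.7 CPM in the 3 suffixes, and MG4 at 17.4 CPM, OG4 at 16.5 CPM (14.1 to 19.1) and OG1 at 13.7 CPM followed. OG2 was again low, at 6.43 CPM (4.79 to 8.46). The fold in EC1 was 2.65 and 3.14, with 1.97, 4.76 and 3.15 in the suffixes, and 0.637% of all genes tested passed the limit in EC1. EC1 was also the leading cluster of Znrf3, the ligase that R-spondins and their receptors withdraw, with folds of 2.22 and 2.6. At E15.5 its Znrf3 level, 8.13 CPM (5.26 to 12), overlapped those of OG3, at 7.73 CPM (3.71 to 14.2), and OG2, at 7.31 CPM (4.93 to 10.4), among others. The levels of Lgr4 in EC1 overlapped between the libraries, and 26.7% and 20.7% of EC1 cells had an Lgr4 UMI, against 6.39% and 3.11% of myeloid cells-like cells.

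Lgr5, known as a stem cell marker of the gut and hair follicle, was low and spread at E15.5. OG2 had 12.2 CPM (9.05 to 16.1), EC4 had 11.7 CPM, PO1 had 10.8 CPM, OG1 had 10.4 CPM and LIG had 9.78 CPM, and 6 clusters overlapped the highest. MG1, a cluster of periosteal dura, had 28 cells and 2 Lgr5 UMIs at E15.5. At E17.5 the 423 MG1 cells had 371 Lgr5 UMIs, or 67.4 CPM (60.7 to 74.6), which was 66.8% of all Lgr5 UMIs of labelled cells. MG1 cells came from suffixes 2 and 3 alone, at 67.9 and 66.9 CPM. EC3 was next at 14.7 CPM (9.86 to 21.1), with 0, 13.6 and 23.6 CPM in the suffixes, LIG had 7.71 CPM, and OG2 had 0.378 CPM (0.078 to 1.11). The meningeal fold was 0.141 (0.0514 to 0.311) at E15.5 and 12.5 (10.4 to 15.1) at E17.5, and the osteogenic fold was 1.47 (1.15 to 1.87) at E15.5 and 0.0751 (0.0548 to 0.101) at E17.5. The E17.5 meningeal fold was that of MG1: MG2, MG3 and MG4 had 2.07, 1.47 and 1.05 CPM, and without MG1 the fold was 0.791 at E17.5, 0.0985 at E15.5, and the E17.5 osteogenic fold was 0.243. Of the meningeal cells, MG1 made up 28 of 642 (E15.5) and 423 of 1263 (E17.5). Suffix 1 of E17.5 had 1 Lgr5 UMI in its 1234 labelled cells and no MG1 cell. The E15.5 osteogenic fold was 0.885 without OG2, PO1 and PO2, and 0.338 with Sp7-positive osteogenic cells alone. A UMI of Lgr5 was found in 45.4% (40.6 to 50.3) of MG1 cells at E17.5 and in 0.207% of the myeloid cells-like cells. In the 28 MG1 cells of E15.5 the share was 3.57% (0.0904 to 18.3), so the small number of cells limits what the E15.5 library can show. The level in MG1 was 8.83-fold higher at E17.5, with an interval from 2.43 to 73.1.

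Lgr6 was the least abundant of the 10 genes in UMIs, with 58 at E15.5 and 175 at E17.5. At E15.5 MG2 had 17 UMIs, or 5.73 CPM (3.34 to 9.17), MG3 had 9, or 4.58 CPM (2.09 to 8.69), and OG4 had 10, or 5.53 CPM (2.65 to 10.2). At E17.5 MG2 had 7.02 CPM (4.86 to 9.82), MG3 had 5.39 CPM (2.69 to 9.64) and MG1 had 3.45 CPM (2.08 to 5.39), while OG4 had 1.33 CPM. The meningeal fold was 6.81 (3.92 to 11.8) and 3.57 (2.6 to 4.88). In MG2, which 2.1% of all genes tested passed, it was 6.38 and 4.37, with 3.97, 6.23 and 3.58 in the suffixes. In MG3, which 3.21% passed, it was 4.36 and 2.98, with 3, 1.29 and 3.49, where the middle value rests on 1 UMI. Lgr4 was also high in MG2 and MG3 at E15.5, and its meningeal fold was 2 at E15.5 and 1.09 at E17.5. Of MG2 cells, 4.57% and 6.13% had an Lgr6 UMI, against 0.376% of 266 and 0 of 482 myeloid cells-like cells, the latter allowing up to 0.622%.

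Rspo2 was an ectocranial ligand in both libraries. At E15.5 it was at 54.0 CPM (47.1 to 61.6) in EC4, 52.3 CPM (48.1 to 56.8) in EC3, 42.2 CPM (38.1 to 46.7) in EC2, 32.2 CPM (26.2 to 39.2) in EC1 and 25.3 CPM (20.6 to 30.8) in LIG. No osteogenic cluster had more than 7.28 CPM. At E17.5 EC3 was apart from all others at 33.5 CPM (25.9 to 42.6), followed by EC4 at 18.3 CPM (14.5 to 22.7), MG4 at 16.3 CPM (11.1 to 23.2) and EC2 at 10.3 CPM (8.2 to 12.8). Rspo2 was thus narrower at E17.5, where EC1 had 2.37 CPM (0.871 to 5.16) and LIG 3.8 CPM (2.65 to 5.29), 13.6-fold and 6.66-fold lower than at E15.5, while EC3 was 1.56-fold lower (1.21 to 2.05). The E17.5 suffixes had 38.2, 28.3 and 38.4 CPM in EC3. The fold in EC3 was 2.26 at E15.5 and 11.4 at E17.5, with 7.99, 11.1 and 15 in the suffixes, a cluster that 1.02% of all genes tested passed. The ectocranial clusters together had 44.1 CPM (41.8 to 46.5) at E15.5 against 3.71 CPM in the other labelled cells, a fold of 11.9, and 10.4 CPM (9.17 to 11.7) against 0.918 CPM at E17.5, a fold of 11.3. A UMI of Rspo2 was found in 31.6% (E15.5) and 25.3% (E17.5) of EC3 cells, against 1.88% and 0.207% of myeloid cells-like cells.

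Rspo3, a ligand of the same family, had UMIs in all 15 clusters of both libraries. At E15.5 its levels were 202 CPM (188 to 216) in LIG, 179 CPM (170 to 187) in EC2, 141 CPM in EC1, 130 CPM (100 to 166) in PO2, 115 CPM in EC3, 105 CPM in EC4, 96.2 CPM in OG1, 91.9 CPM (82.9 to 102) in OG2 and 85.2 CPM in PO1, with OG4 lowest at 7.74 CPM (4.23 to 13.0). At E17.5 they were 176 CPM (167 to 185) in EC2, 172 CPM (154 to 191) in EC3, 141 CPM (130 to 152) in EC4, 117 CPM (103 to 134) in MG4, 88.8 CPM in MG1 and 88.3 CPM (82.3 to 94.6) in LIG, with OG2 at 7.06 CPM (5.33 to 9.17) and OG4 lowest at 2.57 CPM (1.7 to 3.74). LIG was thus the highest cluster at E15.5 and lay below 4 ectocranial or meningeal clusters at E17.5 with intervals apart from its own, and its level was 2.28-fold lower (2.07 to 2.52). The levels in EC2 overlapped between the libraries, with a ratio of E17.5 to E15.5 of 0.985 (0.917 to 1.06), and EC3 and EC4 were higher at E17.5, with ratios of 1.5 (1.32 to 1.69) and 1.35 (1.19 to 1.53). OG2 was 13-fold lower (9.81 to 17.6) and PO1 7.65-fold lower (5.84 to 10.1). The suffixes had 116, 50.8 and 32.7 CPM in EC1 and 241, 167 and 134 CPM in EC2. In MG4 they had 12.9 (0.327 to 71.9), 124 and 119 CPM, where the first value rests on 1 UMI in 7 cells.

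The osteogenic fold of Rspo3 was 0.578 (0.537 to 0.621) at E15.5 and 0.128 (0.119 to 0.139) at E17.5. Without OG2, PO1 and PO2 it was 0.393 and 0.148, and with osteogenic cells that had an Sp7 UMI alone it was 0.159 and 0.0871. In all labelled cells the ectocranial fold was 2.34 (2.19 to 2.51) and 4.91 (4.63 to 5.21). In EC3 at E15.5, after thinning, 26.6% (20.1 to 34) of cells with an Rspo2 UMI and 25.2% (22.5 to 28.1) of the others had an Rspo3 UMI, and at E17.5, with 23 such cells, the shares were 13% (2.78 to 33.6) and 34.5% (27.4 to 42.1). The intervals overlapped in both libraries. A UMI of Rspo3 was found in 72.1% (E15.5) and 77% (E17.5) of EC2 cells, and in 10.9% and 1.66% of the myeloid cells-like cells. At E15.5 the share of OG4 cells, 4.74%, lay below that of the myeloid cells-like cells and is read as background.

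For the question of which genes differed between the stages, the log2 ratio of E17.5 to E15.5 was taken within each cluster and averaged over clusters with equal weight. The mean was at or below −1 for 4 genes, Rspo2 at −2.48, Nkd2 at −1.79, Axin2 at −1.31 and Lgr5 at −1.05, and at or above 1 for Tcf7 alone, at 2.78. Of the 11147 genes tested, 6.72% had such a lower mean and 3.51% such a higher one. Axin2 was lower in 15 of 15 clusters, Nkd2 in 13 of 15 and Rspo2 in 13 of 14 with UMIs in both libraries, and Tcf7 was higher in 14 of 14. Tcf7l2, at −0.83, was lower in 15 of 15, Lef1, at −0.90, in 10 of 14 and Rspo3, at −0.91, in 9 of 15, while Lgr4, at −0.45, was lower in 11 of 14 and Lgr6, at 0.12, in 4 of 10. Lgr5 was lower in 10 of 15 clusters and higher in 5, among them MG1 (8.83-fold) and EC3 (2.55-fold), and over all labelled cells it was at 6.5 CPM at E15.5 and 5.99 CPM at E17.5, a ratio of 0.922 (0.802 to 1.06). Its mean below −1 is thus a mean over unlike clusters, with an SD of 2.40 over the 15. The median over the 10 genes was −0.90, and over all genes tested it was 0.04. These tallies count clusters whose ratio interval included 1, such as MG1, MG2, MG3 and OG3 for Axin2. Clusters near the background are counted too, such as MG2, MG3 and OG4 for Rspo2, at 1.68 to 2.21 CPM at E15.5. In myeloid cells-like cells Rspo2 was at 2.14 and 0.199 CPM, Axin2 at 5 and 1.59, Nkd2 at 3.57 and 1.19 and Rspo3 at 21.4 and 1.59. Tcf7, given below, did not fall there. The part of background in the ratios was not tested.

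Without OG2, PO1 and PO2, 2 of the 10 genes were at or below −1, Rspo2 at −2.26 and Axin2 at −1.02, with Nkd2 at −0.89 and Lgr5 at −0.49. Tcf7 rested on few UMIs at E15.5, with 229 over all labelled cells against 3944 at E17.5, or 4.71 CPM (4.12 to 5.36) and 42.6 CPM (41.3 to 43.9). In EC4, LIG, MG2, MG3 and MG4 the Tcf7 ratio rests on 1 E15.5 UMI each, as in EC4, at 22.8 (3.73 to 935), and MG4, at 3.15 (0.436 to 138). These ratios enter its mean of 2.78 with equal weight. In the 6 osteogenic clusters the ratio ran from 1.27 (0.855 to 1.95) in OG1 to 9.89 (6.97 to 14.5) in OG2. Outside the labelled cells, Tcf7 overlapped between the libraries in the myeloid cells-like cells, at 1.78 CPM (0.58 to 4.17) and 2.19 CPM (1.09 to 3.91). It was higher at E17.5, with intervals apart, in pericytes-like cells (1.77 and 8.41 CPM) and chondrocytes-like cells (1.87 and 7.1 CPM). Higher Tcf7 at E17.5 was thus also counted in these cells outside the osteogenic clusters. High doublet scores were found in 8 of the 191 pericytes-like cells of E15.5 and 26 of the 174 of E17.5. The chondrocytes-like pools of the stages are not alike in their clusters. The part of doublets and of pool make-up in these levels was not tested. Osteoclasts-like cells had 0.895 and 7.23 CPM, again with intervals apart. At E17.5, however, 5 lymphocyte markers were 2-fold higher in them, and Il22 and Cd7 were among their leading genes. Lymphocytes-like cells had Tcf7 at 468 CPM at E15.5, and the part of lymphocytes was not tested. In OG2 the stage difference was wide for genes at large, with 8.35% of the 10789 genes with at least 20 UMIs there at least 2-fold higher and 13.4% at least 2-fold lower at E17.5. All these ratios carry the difference in cell preparation and annotation, which cannot be told apart from stage. Blood cell RNA also differed, with the summed erythroid list at 5643 to 8708 CPM over the clusters at E15.5 and 362 to 601 CPM at E17.5, and its part in these ratios was not tested.

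**Figure D5:**
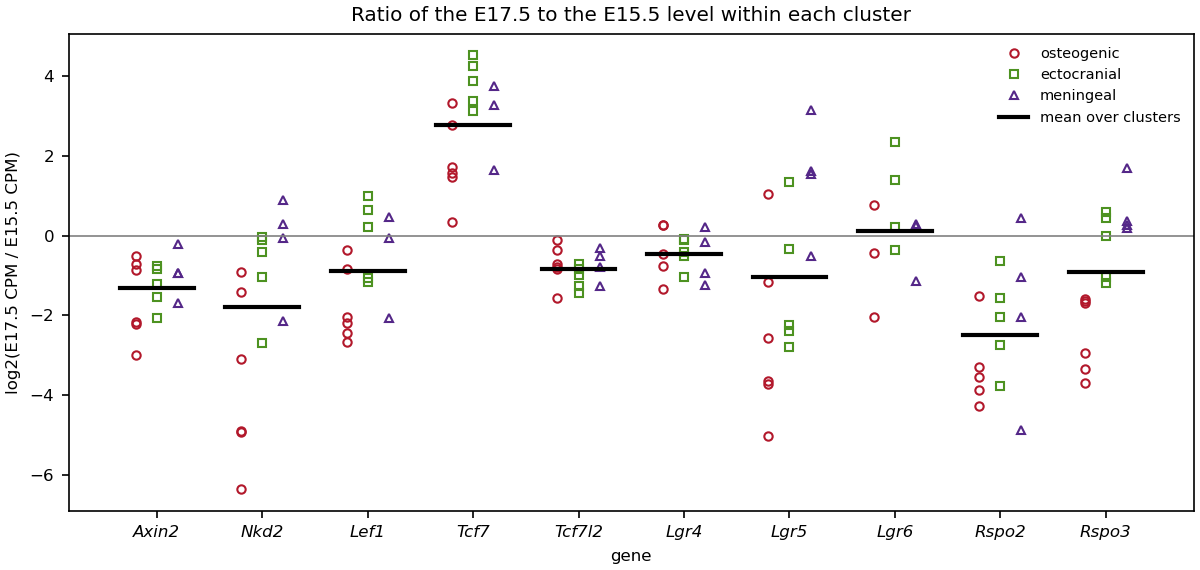
Log2 ratio of the E17.5 to the E15.5 level of each of the 10 genes in each cluster with UMIs in both libraries (points), with the mean over clusters (line). Tcf7 lies above 0 in all 14 clusters and Axin2 below 0 in all 15.

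The other genes of the pathway were read from lists of known members. Of 9 Wnt feedback and target genes, 5 passed the filter on UMIs and 2 of these had a cluster at least 2-fold higher in both libraries, beside 18.7% of all genes tested: Ccnd1, a cyclin, in OG2 (folds of 2.01 and 2.09, at 246 and 174 CPM) and Znrf3 in EC1. Below the filter, Notum, an enzyme that removes the lipid of Wnt proteins, had folds of 14.5 and 6.28 in OG4 with 89 and 220 UMIs over all clusters, and Rnf43 had 31 and 12.5 in OG4 with 11 and 13 UMIs. At E17.5 Notum in OG4, at 9.34 CPM (7.58 to 11.4), overlapped EC4, at 8.68 CPM (6.17 to 11.9), and the Rnf43 folds rest on 6 and 8 UMIs in OG4. Sp5, a target that represses others, had 217 UMIs at E15.5, of which 111 were in OG2 and 66 in PO1, and 4 at E17.5. Its E15.5 UMIs thus lay in the clusters where Axin2, Nkd2 and Lef1 were highest. Nkd1, a relative of Nkd2, had no cluster past the limit and a mean log2 ratio between stages of 0.09, against −1.79 for Nkd2. At E15.5 Nkd1 was nonetheless highest in the same clusters as Nkd2, at 193 CPM (180 to 207) in OG2, 184 CPM in PO1 and 173 CPM in PO2. At E17.5 these clusters held 67.1, 63.5 and 61.1 CPM. Its mean covers unlike clusters, since LIG went from 36.6 to 62.4 CPM and MG1 from 26.7 to 86.6 CPM.

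Of 12 Wnt receptor genes, 10 passed the filter and 5 had such a cluster, beside 18.7% of all genes tested. The coreceptors Lrp5 (3.44 and 3.02) and Lrp6 (2.75 and 2.86) led in MG2, where Lgr6 was also high, Fzd4 in EC3 (2.4 and 6.47), where Rspo2 was high, Fzd3 in MG4 (2.49 and 2.26) and Fzd9 in OG4 (2.36 and 2.01). None of the 12 regulators of β-catenin stability, such as Ctnnb1, Apc and Gsk3b, and none of the 11 nuclear partners, such as Bcl9, Pygo2 and the Tle repressors, had one. The median of the smaller of the 2 folds in the leading cluster was 1.79 for feedback genes, 1.97 for receptors, 1.35 for regulators and 1.38 for nuclear partners, and 1.41 for all genes tested. Rspo1, another R-spondin, was past the limit in OG2, a cluster that 0.224% of all genes tested passed, with folds of 4.65 and 2.26 at 59.7 CPM (52.5 to 67.7) and 57.8 CPM (52.6 to 63.3). PO2 overlapped it at E15.5 (22 to 58.8 CPM) and PO1 at E17.5 (46.9 to 57.5 CPM), and the E15.5 cells of OG2 are those with little Sp7 and much Crabp1. Rspo4 had 7 UMIs at E15.5 and 2 at E17.5.

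Genes whose levels followed those of the members were sought over 30 points, the 15 clusters of the 2 libraries, by Pearson's r of log2(CPM + 1) centered within each library. Points of a library share its depth and preparation, and r is given as a description. Lef1 was most like Bcl11b (0.93), Inhba (0.90) and Lgalsl (0.86), and Tcf7 was most like Mef2c (0.94), Slc25a5 (0.92) and Nme1 (0.91). Nkd2 was most like Tcf4 (0.88), Cox6c (0.84) and Ism1 (0.84), and Axin2 like Rab3ip (0.81), Eif1b (0.79) and Rpia (0.79). Rspo3 was most like Meg3 (0.93), Celf2 (0.91) and Adgrl3 (0.90), Rspo2 like Casp12 (0.89), Ankrd55 (0.89) and Ralyl (0.88), and Tcf7l2 like Loxl1 (0.89), Plagl1 (0.89) and Ankrd55 (0.88). Lgr4 was most like Sbf1 (0.80), Armc9 (0.79) and G6pc3 (0.77), and Lgr5 like Aplp1 (0.71), Ier5 (0.69) and Bex4 (0.67). Lgr6, below the filter, was not compared. Among the other 9 genes, Tcf7l2 and Rspo2 were closest (0.82), Tcf7l2 and Rspo3 were at 0.71, and Lef1 was at 0.69 with Nkd2 and 0.66 with Axin2. Lgr4 had no close relative, with 0.15 for Tcf7l2 as its nearest.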

How the data were processed

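The authors deposited a matrix of counts for each stage, which are UMIs per gene and barcode, not normalized and taken before their cell filters (15384 barcodes at E15.5, 9326 at E17.5). Another table gives the cluster label of the cells they kept as osteogenic or mesenchymal. According to their notes, reads were processed with Cell Ranger on mm10, with FastQC 0.11.7 and MultiQC 0.9, and cells were clustered with Seurat 3.2.0. Version 3.1.0 stands in the E15.5 header, and the gene lists of the stages differ, so a gene's annotation can differ between them. The UMI total of a cell was equal in matrix and table for all 6830 labelled cells of E17.5 and for 0 of E15.5, where the median was 8510 in the matrix and 11513 in the table. Of the 5340 cells that the table lists for E15.5, 5 were absent from the matrix, and 93 lay outside the filters stated below and were kept. Another 11 columns of the table were not used.

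Levels were computed from UMIs summed over cells with Python 3.11.15, numpy 2.4.6, scipy 1.17.1 and pandas 2.3.3, and figures with matplotlib 3.10.9. The computation was tested on simulated data. A gene was tested if it was in both gene lists (27514 genes) with at least 100 UMIs over the labelled cells of each library, which left 11147. A cluster or region was counted at a fold of at least 2 in both libraries. Intervals are exact at 95%, and a count of 0 allows up to 3 counts. Shares of cells were also computed after thinning each cell to 3000 UMIs, leaving out shallower cells. Unlabelled barcodes (2875 of E15.5, 1937 of E17.5) that had 1000 or more UMIs and genes, a mitochondrial share up to 7.5% and shares of Hbb and of Hba up to 3% were clustered per library with scanpy 1.11.5 and leidenalg 0.10.2 on 2000 variable genes, 30 principal components, 30 neighbors and a resolution of 1, and named from fixed markers of which at least 4 and a share of at least 0.6 of the list were 2-fold higher. Scrublet called 415 of 8210 cells at E15.5 but 41 of 8767 at E17.5, too few to be used, so no doublets were removed, and as an alternative the cells from the 94th percentile of its score upward (501 and 558) were left out.

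The genes, pathway lists and named genes were chosen with earlier results of these data known. Named are the 10 genes, up to 5 genes per list past the limit in both libraries and the 3 genes most like each member (pseudocount 1). Genes of the feedback list below the filter, Sp5, the dermal-type list and the alternatives without OG2, PO1 and PO2, without MG1, with Sp7-positive osteogenic cells and without keratinocyte UMIs were chosen after seeing the data. Other alternatives were other normalizations, cell filters, limits, suffixes left out and other cluster settings. The cells of a suffix are not replicates.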

Additional observations from a re-analysis of the deposited data

Results flagged for a closer look

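In the 5 comparisons kept here a group of cells stood on opposite sides of the other labelled cells in the 2 libraries, beyond counting error. A single cluster also had to be at least 2-fold above in one library and 2-fold below in the other. Every E17.5 suffix with at least 20 UMIs of the gene had to be on the E17.5 side, so that agreement was a condition and not a result. The suffix condition left out Rspo3 in the meningeal clusters, with folds of 0.3 (0.262 to 0.344) at E15.5 and 1.36 (1.27 to 1.46) at E17.5. The differences were not tested. Against the rest of the labelled cells, Tcf7 in OG1 had an E15.5 fold of 3.38 and an E17.5 fold of 0.4 (0.251 to 0.433 in the suffixes). Nkd2 in the meningeal clusters had a fold of 0.221 at E15.5 and 1.46 at E17.5 (1.35 to 1.96). Lgr5 had a fold of 1.47 at E15.5 and 0.0751 at E17.5 (0.0652 to 0.0823 in suffixes 2 and 3) in the osteogenic clusters, of 2.04 and 0.058 (0.0391 to 0.0729) in OG2, and of 0.141 and 12.5 (11.8 to 12.3) in the meningeal clusters. Suffix 1 held 1 Lgr5 UMI and gives no fold, and without MG1 the E17.5 meningeal fold was 0.791.

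In cells outside the authors' cluster table, 4 levels were at least 2-fold above the highest labelled cluster of the library. An unnamed E15.5 cluster of 73 cells, with Prokr2, Dll1, Sox2 and Stmn2 among its leading genes, had Lef1 at 175 CPM (147 to 206) and Rspo3 at 447 CPM (402 to 496), and also Nkd2 at 185 CPM (156 to 217) and Axin2 at 60.7 CPM (44.9 to 80.2). Of its 73 cells, 21 had a doublet score from the 94th percentile upward, and the part of doublets in these levels was not tested. The E15.5 lymphocytes-like cluster of 11 cells had Tcf7 at 468 CPM (331 to 642), from 38 UMIs. The E17.5 glia-like cluster of 32 cells had Nkd2 at 194 CPM (150 to 247) and Lef1 at 32.8 CPM (16.4 to 58.7).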

How the results depend on the processing

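No paired analysis was possible because each stage has 1 library, and no result comes from a test. The number of genes with a region at least 2-fold higher in both libraries was 5 in all 15 alternatives, with Lgr6, below the filter, among the 5. The number at least 2-fold higher at E17.5 was 1 in all 14. The pairs of a gene and a cluster, 6 as reported, were 11 with the mean of per-cell CPM, 11 with mean UMIs per cell and 18 with a limit of 1.5-fold. The genes at least 2-fold lower at E17.5, 4 as reported, were 2 with mean UMIs per cell and 2 without OG2, PO1 and PO2. Of all genes, 3150 instead of 2088 had such a cluster with at least 20 UMIs per library (23.5% of those tested), and 5052 with no filter on low values (28.5%). The Lgr4 mean log2 E17.5 over E15.5, −0.45 as reported, was 0.02 with mean UMIs per cell. Without OG2, PO1 and PO2, the E15.5 osteogenic fold was 0.907 for Axin2 and 0.885 for Lgr5, and the ectocranial fold of Axin2, 0.546 as reported, was 1.41. Without MG1, the E17.5 Lgr5 fold was 0.791 in the meningeal clusters, 12.5 as reported, and 4.37 in the ectocranial clusters, 0.701 as reported. With osteogenic cells that had an Sp7 UMI alone the Axin2 and Lgr5 osteogenic and the Axin2 ectocranial folds were 0.949, 0.338 and 1.47. Of the 6 pairs, 3 went below 2-fold under an alternative: Lef1 fold in PO2, E17.5, at 1.34 without suffix 2 and 1.74 with the share of cells at 3000 UMIs, Lgr4 fold in EC1, E17.5, at 1.95 with mean UMIs per cell, and Lgr6 fold in MG2, E15.5, at 1.29 with the share of cells at 3000 UMIs. Of 1463 single values under alternatives, 166 moved beyond their counting interval without reversing and 9 reversed. The causes were not tested. Values under 20 UMIs are limited by depth.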

Other observations

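Outside the labelled cells, Lgr4 was above its highest labelled level (41.4 CPM at E15.5 and 32.4 CPM at E17.5) in 1 of 4 chondrocytes-like clusters of E15.5, at 61 CPM (51.1 to 72.4) in 256 cells, in an unnamed E15.5 cluster of 306 cells, at 54.2 CPM (44.4 to 65.5), and in both chondrocytes-like clusters of E17.5, at 53.1 CPM (40.1 to 69) in 130 cells and 35.7 CPM (28.2 to 44.5) in 188 cells. The other 3 chondrocytes-like clusters of E15.5 had 23.2 to 27.4 CPM. All chondrocytes-like cells together had Lgr4 at 32.7 CPM (29.3 to 36.5) and 41.4 CPM (34.7 to 49), Lgr5 at 1.09 CPM (0.542 to 1.94) at E15.5 and no Lgr5 UMI among 318 cells at E17.5, and Rspo2 at 1.68 CPM and 0.309 CPM. These pools of the 2 stages are not alike. Prg4, Asb9 and Lamc3 were among the leading genes of the E17.5 cluster of 130 cells. They also led in the unnamed E15.5 cluster of 306 cells, which is outside the E15.5 pool. Osteoclasts-like cells had Lgr4 at 3.28 CPM (1.64 to 5.87) and 2.28 CPM (0.838 to 4.97).

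An unnamed E17.5 cluster of 161 cells, with Ihh, Wnt10a and Wnt7b among its leading genes and a median of 36085 UMIs, had Tcf7 at 102 CPM (94.1 to 111). Another unnamed E17.5 cluster, of 198 cells with a median of 25842 UMIs, had Axin2 at 15.4 CPM (12 to 19.6), beside 13.7 CPM in OG1, the highest labelled cluster. High doublet scores were found in 36 of the 161 and 44 of the 198 cells, and over 6000 genes in 46 and 21 of them, and the part of doublets in these levels was not tested. Mast cells-like cells at E15.5 had Lgr4 at 24.8 CPM (18.5 to 32.5) in 338 cells.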
